A study of Mus musculus with 10 samples.

Results

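The CCAAT/enhancer-binding proteins (C/EBPs) were followed through 4 genes, Cebpa, Cebpb, Cebpd and Cebpg, in maps of N6-methyladenosine (m6A) on mouse liver mRNA. All peaks whose gene name was one of the 4 were taken, 27 of the 32804 peaks in 4 distinct lists, or 4 of the 8641 genes called in at least 1 list. Wild-type C57BL/6J mice were killed on day 1 or at 1, 2, 4 or 8 weeks, and liver RNA was sequenced before (input) and after (IP) enrichment with an antibody against m6A. The 10 samples were 1 input and 1 IP per age, with no treatment and no mutant. According to the methods, 2 animals were used per age, and for each age a single list gave the peaks where IP exceeded input. The 2-week and 4-week tables were the same in all 8765 peaks and were counted as 1, the joint list (2/4 weeks in the figures). Judged by its number of genes, the joint list is probably that of 2 weeks, and nothing is known here of 4 weeks. With no more than 1 list per age no spread between replicates could be had, so no difference between ages was tested. A peak needs both an mRNA and its methylation, and in whole liver fewer cells of a type and less RNA per cell cannot be told apart. Of 12 hepatocyte markers, 4 to 6 had a peak, depending on the list. Alb, Ttr, Serpina1a and Asgr1 had none in any, so peaks could not be used to check the tissue.

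C/EBPs bind DNA as dimers through a basic leucine zipper, which lies at the C-terminal end of the protein and is thus encoded just before the stop codon. C/EBPα switches on metabolic genes of hepatocytes and restrains their division, C/EBPβ and C/EBPδ are induced in the acute-phase response, and C/EBPγ lacks an activation domain and acts through its partners. The mark m6A is written on mRNA by the Mettl3-Mettl14 complex at a short consensus around GGAC, is often found near stop codons and in long exons, and is read by proteins that change how long an mRNA lives and how well it is translated.

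The genes differ in layout, which sets where a peak can lie. Coordinates are mm10 (GRCm38), and parts of the mRNA are those of the longest protein-coding transcript in GENCODE M21. Cebpa (chromosome 7, 35119293 to 35121928, plus strand) is 1 exon with a coding sequence of 1077 nt and 1430 nt after the stop codon. Cebpb (chromosome 2, 167688915 to 167690418, plus strand) is 1 exon with 888 coding nt and 506 nt after the stop. Cebpd (chromosome 16, 15887286 to 15891031, plus strand) is 1 exon with 804 coding nt and 2900 nt after the stop. Cebpg (chromosome 7, 35046422 to 35056573, minus strand) has 2 exons. Its whole coding sequence of 450 nt lies in exon 2, which is 4511 nt long. The coding sequences of Cebpa, Cebpb and Cebpd were rich in G and C, at 71.9%, 73.4% and 70.4%, against 50.7% in Cebpg. GENCODE also lists a spliced form of Cebpa that was not used here.

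The sites below are the copies of GGAC that lay in the peak at the stop codon in every list, at most 2 per gene and those nearest to the stop codon. They are 8 of the 14 copies that lay in a peak of every list, and are shown because the calls of the 4 lists meet there. They are written on the strand of the mRNA with T for U, from GENCODE M21 transcripts, with the consensus in capitals, and their coordinates are mm10.
Cebpa, coding sequence, chr7:35120416-35120439, plus strand: gccgtgaactGGACacgctgcggg
Cebpa, 3' UTR, chr7:35120503-35120526, plus strand: cgcggctgcgGGACcgccttgggc
Cebpb, 3' UTR, chr2:167689989-167690012, plus strand: gcgcgcgcccGGACcaccgtgcgt
Cebpb, 3' UTR, chr2:167690033-167690056, plus strand: tgcaccgaggGGACaccgcgggca
Cebpd, 3' UTR, chr16:15888213-15888236, plus strand: agtttctttgGGACctgcgagcga
Cebpd, 3' UTR, chr16:15888250-15888273, plus strand: cttgggcactGGACtgcgagagaa
Cebpg, 3' UTR, chr7:35050151-35050174, minus strand: caaaattcctGGACtttaatattc
Cebpg, 3' UTR, chr7:35050092-35050115, minus strand: tgtaggaatgGGACaatggaaggt
The Cebpa site in the coding sequence fell in codon 336 of 359, its consensus beginning at position -70 from the first base of the stop codon, and the other began 17 nt after the first base of the stop codon. The Cebpb sites began 89 and 133 nt after it, the Cebpd sites 94 and 131 nt, and the Cebpg sites 222 and 281 nt. The last base of the consensus was followed by A, C or T at all 8 sites, as the wider m6A consensus asks.

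All 4 members had a peak in all 4 lists. They were thus called at day 1, where 73.3% of the 8641 genes were called, at 1 week (64.0%), in the joint list (63.9%) and at 8 weeks (39.9%). A peak in all 4 lists was found for 23.8% of those genes, and for 39.8% of 264 single-exon protein-coding genes (95% Wilson interval 34.1% to 45.8%). The members were chosen with earlier results of these data known, so their count is a description. Cebpe and Ddit3, C/EBP genes outside the choice, were not called in all 4 lists. The members held 6 peaks at day 1, 8 at 1 week, 6 in the joint list and 7 at 8 weeks. Cebpg had 1 peak in every list, Cebpa had 1 to 3, Cebpb had 1 to 3 and Cebpd had 1, except at 8 weeks, when it had 3. Of those 3, the peak at 15888724 to 15888874 had a false discovery rate of 0.752, so the 8-week count includes a weak call.

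**Figure D1:**
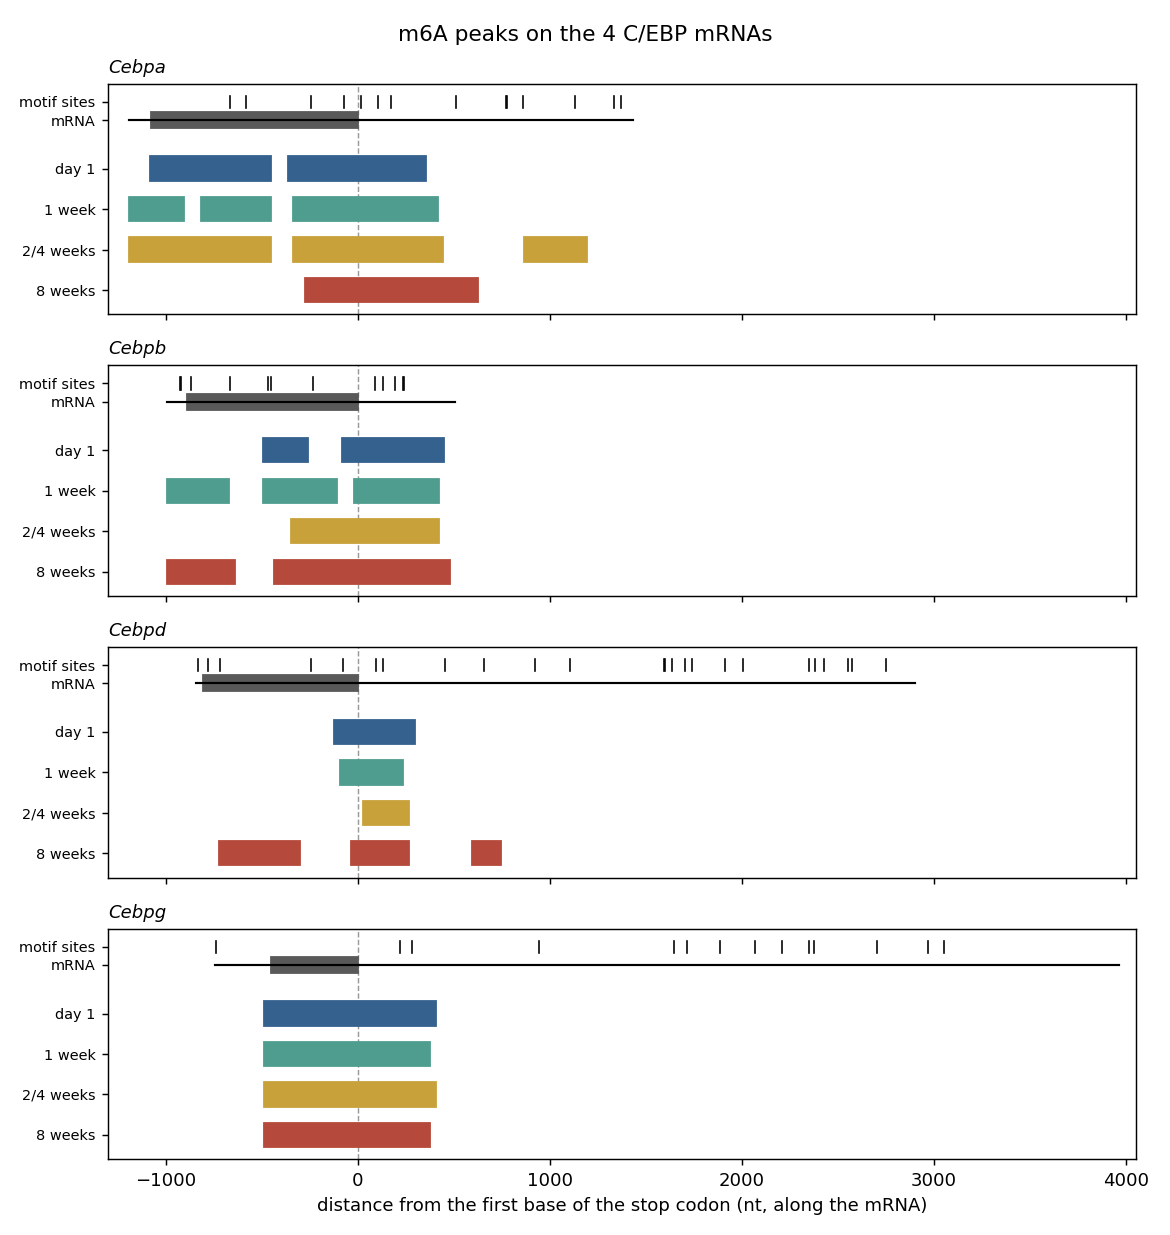
Peaks of each list on the mRNAs of Cebpa, Cebpb, Cebpd and Cebpg, drawn by distance in nt from the first base of the stop codon (dashed line). The thick grey bar is the coding sequence, the thin line the rest of the mRNA, coloured bars are peaks and black ticks are copies of the consensus. A bar crosses the dashed line in every row but the joint row of Cebpd.

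The stop codon was the common place. A peak held at least 1 base of it in all 4 genes at day 1, at 1 week and at 8 weeks and in 3 of 4 in the joint list. Peaks covered 34.3% to 70.4% of the Cebpa mRNA and 51.1% to 84.4% of that of Cebpb. In Cebpd they covered 6.43% to 23.3% and in Cebpg 18.4% to 19.1%. The shares of other genes below were not matched for peak width, and the part of width was not tested. Of the protein-coding genes with a peak, 38.6% had one over the stop codon at day 1, 32.9% at 1 week, 31.3% in the joint list and 24.5% at 8 weeks. Single-exon genes, the nearest comparison for Cebpa, Cebpb and Cebpd, stood at 55.3% at day 1 (interval 48.8% to 61.6%), 45.3% at 1 week (38.5% to 52.2%), 46.8% in the joint list (39.7% to 53.9%) and 32.0% at 8 weeks (24.4% to 40.7%). Cebpa, Cebpb and Cebpg had a peak over the stop codon in every list. This held for 17.4% of the protein-coding genes with a peak in all 4 and for 27.5% of 102 such single-exon genes (19.7% to 36.8%). Both shares count only genes with a peak that could be placed against an annotated stop codon in every list. Cebpd missed this only in the joint list, where its peak began 26 nt after the first base of the stop codon. That gap is less than 1 step of the peak edges, which were compared among unspliced stop codon peaks at day 1 and 1 week. Of the 1513 edges that differed, 91.9% did so by a multiple of 30 nt, within 1 nt. The shift of the Cebpd edge itself was larger. Its upstream edge ranged over 150 nt across the 4 lists and lay farthest downstream, at 15888155, in the joint list. Without the joint list, a setting chosen after seeing the data, all 4 members had a peak over the stop codon in every list. The joint list held the only miss, so this count follows from the choice and adds nothing.

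**Figure D2:**
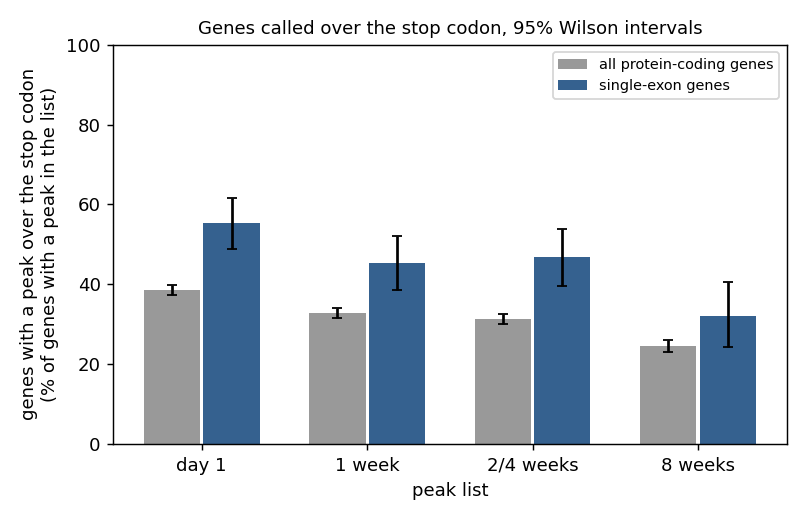
Share of genes with a peak over the stop codon among genes with any peak in the list, for all protein-coding genes (grey) and single-exon genes (blue), with 95% Wilson intervals that cover counting error only. The single-exon share runs from 55.3% at day 1 to 32.0% at 8 weeks and its bar is the higher in each list.

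The fold enrichments below are the authors' deposited ratios of IP to input. They share no scale between lists, so each is also given as its percentile among all peaks of its own list, whose median folds were 18.9, 20.4, 17.6 and 18.3 from day 1 to 8 weeks. The significance is the deposited -log10 p of the peak, which compares IP with input and says nothing of ages.

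Cebpa, the factor of the metabolic hepatocyte, carried its strongest peak over the stop codon in each list. At day 1 it spanned 35120131 to 35120850 with a fold of 309, at percentile 98.5. At 1 week it spanned 35120161 to 35120910 with a fold of 361, at percentile 98.1. In the joint list it spanned 35120161 to 35120940 with a fold of 120, at percentile 91.8. At 8 weeks it spanned 35120221 to 35121120 with a fold of 52.3, at percentile 79.8. Its place by fold was thus lower in the joint and 8-week lists. The -log10 p was 876 at day 1, 1180 at 1 week and 851 at 8 weeks, at percentiles 98.5, 98.7 and 98.3. In the joint list the Cebpa peak was 1 of 48 whose log10 p the spreadsheet could not show.

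The Cebpa stop codon peak also lay farther into the 3' UTR in each later list. Counted from the first base of the stop codon, its middle lay at -5.5 nt at day 1, at 39.5 nt at 1 week, at 54.5 nt in the joint list and at 174.5 nt at 8 weeks. The upstream edge moved by 90 nt and the downstream edge by 270 nt between day 1 and 8 weeks, so the peak grew from 720 to 900 nt. Among 444 genes with a stop codon peak in both lists the upstream edge moved by a median of 60.0 nt and the downstream edge by -60.0 nt. The median middle shift was thus 0 nt and the median width ratio 0.637, and 10.1% of the peaks were wider at 8 weeks. The Cebpa shift of 180 nt lay at percentile 90.3 of them and its width ratio of 1.25 at percentile 95.9. The class in the tables changed as well, and the peak was called CDS at day 1 and 3' UTR in the other lists.

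Cebpa also had peaks at the start of its coding sequence, and these were the main difference between the 8-week list and the others. A day 1 peak, 35119413 to 35120042, held the start codon and had a fold of 15.1. At 1 week the same stretch was called as 35119293 to 35119592 and 35119682 to 35120042, with folds of 13.1 and 13.3. In the joint list it was a single peak, 35119293 to 35120042, with a fold of 22.5. No peak was called there at 8 weeks. Calls were fewer and narrower in that list in general, with 4808 peaks of median width 181 nt against 10161 of 270 nt at day 1. All 3 lists with a call at the start of the coding sequence ended it at the same base, 35120042. These folds were near the list medians, at percentiles 34.8 to 58.2, while their -log10 p ran from 8.17 to 54.7. The share of the coding sequence inside peaks was accordingly 91.8% at day 1, 80.8% at 1 week, 89.0% in the joint list and 25.5% at 8 weeks. A weak peak deep in the 3' UTR, 35121359 to 35121688, was called in the joint list alone, with a fold of 5.27. The antisense gene Gm45091 shares up to 51 nt of exon with the peaks at the start codon, and whether strand was kept in counting is stated in no source used here. Gm45091 had no peak of its own.

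Cebpb, the factor of the acute-phase response and of liver regeneration, was covered along much of its short mRNA. Its peak over the stop codon was 167689829 to 167690359 at day 1, with a fold of 36.6, and 167689888 to 167690330 at 1 week, with a fold of 402. It was 167689563 to 167690330 in the joint list, with a fold of 45.7, and 167689475 to 167690389 at 8 weeks, with a fold of 16.5. The percentiles were 69.4, 98.4, 76.7 and 45.4, so the 1-week peak stood far higher in its list than the others. By p the order was different: the -log10 p was 148 at day 1, 175 at 1 week, 236 in the joint list and 1920 at 8 weeks, at percentiles 91.2, 93.6, 96.5 and 99.1. The widest call thus had the lowest fold of the 4 and the strongest p.

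The Cebpb calls differed mostly at their upstream edge, which ranged over 413 nt, while the downstream edge ranged over 59 nt. At day 1 and 1 week a separate peak lay in the coding sequence, 167689416 to 167689652 with a fold of 46.2 and 167689416 to 167689799 with a fold of 9.45. In the joint and 8-week lists no separate peak was called there, and the stop codon peak reached back to codons 181 and 152. It was 768 and 915 nt wide, against 531 nt at day 1 and 443 nt at 1 week. The width ratio of 8 weeks to day 1, 1.72, lay at percentile 98.9 of the 444 genes. A further peak at the 5' end began at the first base of the mRNA, 167688915, and held the start codon. It ended at 167689239 at 1 week, with a fold of 23.3, and at 167689269 at 8 weeks, with a fold of 20. Neither day 1 nor the joint list had it. The share of the coding sequence inside peaks was 35.8%, 70.3%, 39.1% and 76.9% from day 1 to 8 weeks, and that of the 3' UTR 88.3%, 82.6%, 82.6% and 94.3%. Exons of Tmem189, on the other strand, overlap 1 Cebpb peak in each list, by 142 to 312 nt. Tmem189 had a peak in 3 lists, in each case outside Cebpb.

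The downstream AUG codons of Cebpa and Cebpb, from which ribosomes can start shorter proteins, were called unevenly. Cebpb has in-frame AUG codons at 1, 22, 152, 227 and 245. The AUGs at 1 and 22, where the long activating forms begin, lay in a peak at 1 week and 8 weeks. The AUG at 152, where the short inhibitory form LIP begins, lay in one at day 1, 1 week and 8 weeks, and those at 227 and 245 in every list but day 1. In Cebpa the AUGs at 1, 15 and 118 lay in a peak in every list but the 8-week one, and the AUG at 214 in none.

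Cebpd, also an acute-phase factor, had the narrowest peaks of the family at the stop codon. They spanned 15888005 to 15888424 at day 1, 15888035 to 15888365 at 1 week, 15888155 to 15888395 in the joint list and 15888095 to 15888395 at 8 weeks. The folds were 199, 188, 66.7 and 647, at percentiles 96.2, 94.6, 83.8 and 99.9. At 8 weeks it ranked 8 of 4808 peaks by fold, so Cebpd stood highest by fold in the list in which Cebpa, Cebpb and Cebpg stood lowest. The -log10 p was 81.1, 59.1, 20.8 and 518. The width fell from 420 nt at day 1 to 301 nt at 8 weeks, a ratio of 0.717 at percentile 59.5 of the 444 genes, close to their median. At 8 weeks a peak was also called in the coding sequence, 15887406 to 15887825, with a fold of 62 and a -log10 p of 15.7. A peak in the 3' UTR, 15888724 to 15888874, had a fold of 8.46 and a false discovery rate (FDR) of 0.752, so it is a weak call. Most of the long 3' UTR was free of calls, with 8.07% to 14.3% of it inside peaks, where the upper value counts that weak call.

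Cebpg, the partner without an activation domain, gave nearly the same call in all 4 lists. The peak was 35049979 to 35050876 at day 1 and in the joint list and 35050009 to 35050876 at 1 week and at 8 weeks. It held the whole coding sequence of 450 nt, the last 40 nt before the start codon and up to 405 nt from the stop codon on. Its upstream edge was the same base in all 4 lists and lay in exon 2, like the rest of the peak. The folds were 181, 170, 258 and 82.7, at percentiles 95.4, 93.6, 97.4 and 89.0, and the -log10 p was 1180, 1960, 1110 and 1780. The shorter coding transcript of Cebpg has 69 nt after the stop codon, so the call ran past its end. Of the 3962 nt after the stop codon of the longer one, 9.46% to 10.2% lay in the peak.

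**Figure D3:**
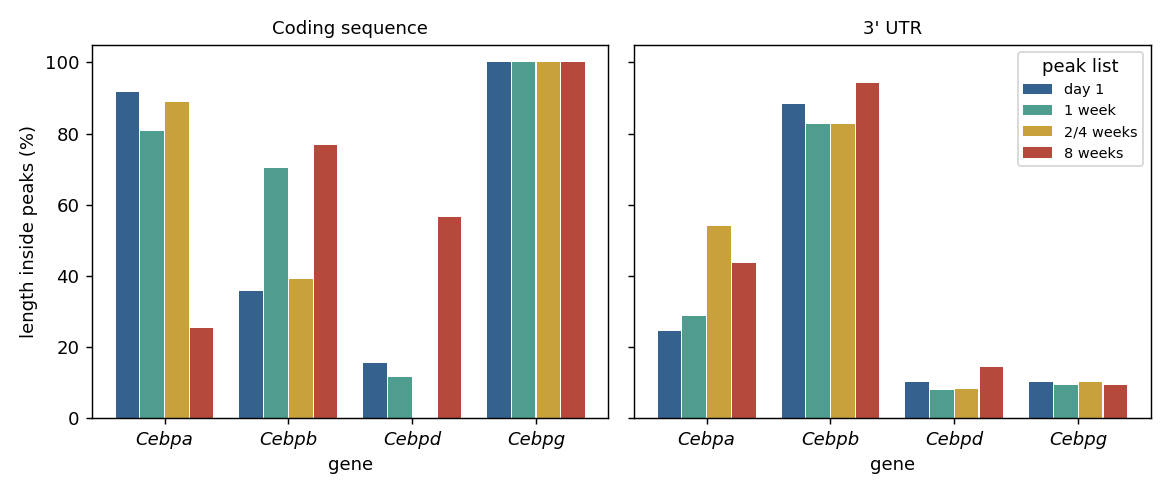
Share of the coding sequence (left) and of the 3' UTR (right) inside peaks, in percent of length, for each gene and list. The coding sequence of Cebpg is at 100% in every list, that of Cebpa drops to 25.5% at 8 weeks, and Cebpd has its highest share, 56.5%, at 8 weeks.

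Side by side, the members kept their place to different degrees. The part of the stop codon peak common to all 4 lists was 96.7% of their joint span in Cebpg, 63.6% in Cebpa, 50.2% in Cebpd, counting its joint peak, and 48.4% in Cebpb. It ran from 35050009 to 35050876 in Cebpg, 35120221 to 35120850 in Cebpa, 15888155 to 15888365 in Cebpd and 167689888 to 167690330 in Cebpb. Of the 6 day 1 peaks, 5 overlapped a peak on the same strand in every other list, where 19.0% of all day 1 peaks did. The exception was the Cebpa peak at the start codon, absent at 8 weeks. When 50% of both peaks had to overlap, 4 of 6 did so, against 7.53% of all day 1 peaks. Both shares cover all day 1 peaks, also those of genes not called in every list. Every member was called in all 4 lists, as 23.8% of genes were, and no share among such genes was taken. The stop codon peaks of Cebpa, Cebpb and Cebpg were wide for their lists, at width percentiles of 81.2 to 99.6 among all peaks. Stop codon peaks of single-exon genes were wide too. Their median widths were 562, 420, 478 and 268 nt from day 1 to 8 weeks, against 270, 241, 240 and 181 nt over all peaks. The Cebpb peak was below that single-exon median at day 1, at 531 nt, and near it at 1 week, at 443 nt. The part of width in the overlaps above was not tested.

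**Figure D4:**
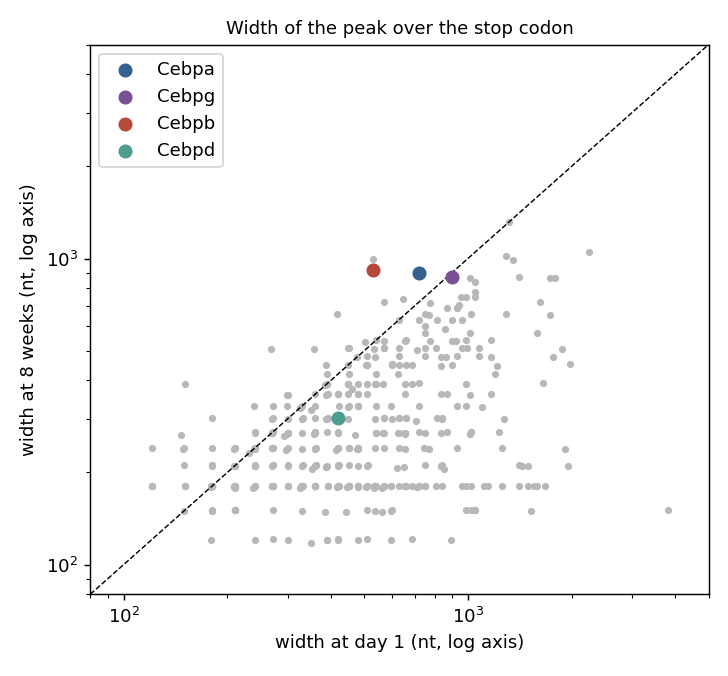
Width of the peak over the stop codon at day 1 and at 8 weeks, in nt on log axes, for 444 genes with one in both lists (grey) and the 4 members (colours). The dashed line marks equal width. Cebpb and Cebpa lie above it, Cebpg just under it at 898 and 868 nt, and Cebpd below it among most other genes.

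By fold, the order of the members changed between lists. At day 1 the highest fold was that of Cebpa (309), followed by Cebpd (199), Cebpg (181) and Cebpb (46.2). At 1 week it was Cebpb (402), Cebpa (361), Cebpd (188) and Cebpg (170). In the joint list it was Cebpg (258), Cebpa (120), Cebpd (66.7) and Cebpb (45.7), and at 8 weeks Cebpd (647), Cebpg (82.7), Cebpa (52.3) and Cebpb (20). No replicate lists were at hand, so it could not be said which neighbours in these orders differ beyond their spread. By p, the best peaks of Cebpa, Cebpb and Cebpg were at percentiles of 91.2 to 100, and those of Cebpd at 72.3 to 97.4.

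**Figure D5:**
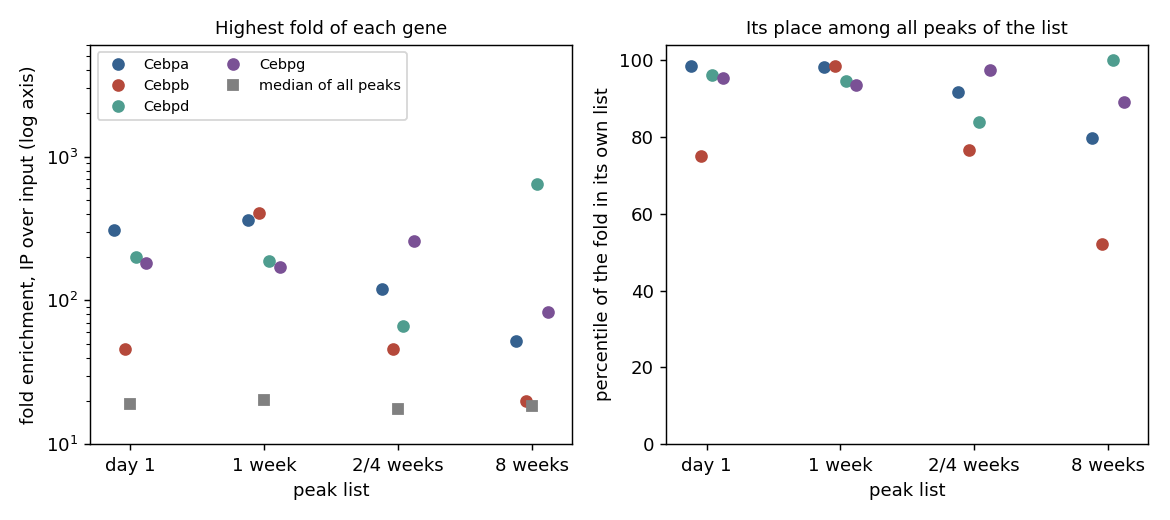
Highest fold enrichment of each member in each list on a log axis, with the median of all peaks in grey (left), and the percentile of that fold in its own list (right). Folds share no scale between lists. Cebpd has its highest fold, 647, at 8 weeks, where Cebpb is at 20, next to the median of 18.3.

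The consensus GGAC, searched on the mRNA strand, was in 6 of 6 member peaks at day 1, 7 of 8 at 1 week, 6 of 6 in the joint list and 7 of 7 at 8 weeks. Over all peaks that lay wholly on the longest coding transcript the shares were 78.6%, 75.8%, 74.2% and 69.3%, and over those of at least 300 nt they were 91.6%, 90.6%, 90.0% and 90.4%. The Cebpa peak of 300 nt at the start codon at 1 week was the one without. The word CAGG, the same letters in another order, was in 5, 7, 4 and 6 member peaks, against 81.2%, 79.5%, 77.8% and 73.5% of all peaks. The wider consensus (A, G or T, then A or G, then AC, then A, C or T) was in all 27 member peaks, and in 99.0%, 99.0%, 98.4% and 98.4% of all peaks. Copies of GGAC also lay outside the called parts. The 4 mRNAs held 64 copies, of which 28 lay in a peak of any list and 14 in a peak of every list. The density was 5.31 per kb inside peaks of any list, 4.93 per kb outside and 6.51 per kb in the part of the stop codon peaks shared by all lists. Cebpb alone put the density inside peaks above that outside, at 9.03 per kb over 1329 nt inside and 0 over only 175 nt outside. In the other members the density was lower inside peaks than outside, at 4.37 against 8.83 in Cebpa, 5.05 against 6.90 in Cebpd and 2.23 against 3.15 in Cebpg. The shared part stood at 7.94 in Cebpa and 2.30 in Cebpg, also below the density outside all peaks of the same mRNA. In Cebpa that outside part was only 566 nt long. The shared part stood at 9.48 in Cebpd and 11.3 in Cebpb, above the density outside all peaks. Cebpb had all 12 of its copies in peaks. Cebpd had 5 of 24 in peaks, Cebpg 2 of 14 and Cebpa 9 of 14. The coding sequence of Cebpg, which was inside the peak in all 4 lists, held no copy at all.

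Other genes of the C/EBP system were looked up in lists that had been chosen with earlier results known. The share of all annotated genes called in at least 1 list was not taken. Counts of genes called in at least 1 list therefore have no comparison here. Cebpe, the C/EBP of granulocyte maturation, had a peak over the stop codon at day 1 (chromosome 14, 54710390 to 54710626, a fold of 50.4) and at 1 week (54710478 to 54710803, a fold of 13.8), and in neither later list. Of 7 neutrophil markers, Cebpe among them, 3 were called in at least 1 list. Of these the day 1 list held 1, the 1-week list 3, the joint list 0 and the 8-week list 0, where the lists held 73.3%, 64.0%, 63.9% and 39.9% of all genes with a peak. The marker in the day 1 list was Cebpe itself, and Mpo and Itgam were called at 1 week alone. The 8-week list is also the shortest, with 4808 peaks against 10161 at day 1. The part of cell make-up in the Cebpe calls was not tested. Cebpz, a CCAAT-binding protein outside the bZIP family, had peaks in its coding sequence in every list but the 8-week one, with best folds of 116, 172 and 331. Ddit3, the stress-induced C/EBP known as CHOP, had none.

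Of 16 bZIP genes whose proteins can pair with C/EBPs or share their sites, 14 were called in at least 1 list. Of these, 7 had one in all 4, against 23.8% of all genes with a peak, and 5 of the 7 had one over the stop codon in every list, against 17.4% of the protein-coding genes called in all 4. The day 1 list held 9 of them, the 1-week list 13, the joint list 11 and the 8-week list 9, against 73.3%, 64.0%, 63.9% and 39.9% of all genes with a peak. Atf4, a factor of the amino acid response and a partner of C/EBPγ, was called over the stop codon at day 1 with a fold of 6.23 and in the joint list with a fold of 34. Atf2 and Atf6 were called there at 1 week alone, with folds of 16.7 and 23.8, and Atf5 in the joint list alone, with a fold of 14.1. The 3 Jun genes, Jun, Junb and Jund, chosen after their values were seen, are single-exon genes like Cebpa, Cebpb and Cebpd and had a peak over the stop codon in every list. The folds there were 260, 497, 444 and 790 in Jun. They were lower in Junb, at 133, 42.5, 205 and 138, and in Jund, at 214, 54.2, 290 and 128.

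Of 12 regulators of C/EBP proteins, 10 were called in at least 1 list. Of these, 4 had one in all 4, against 23.8% of all genes with a peak. Trib1, which directs C/EBPα to degradation, was called over the stop codon in every list, with folds there of 350, 228, 210 and 21.3. Trib2, which does the same, had folds of 94.6, 32 and 17.6 and no peak at 8 weeks. Fbxw7, a ubiquitin ligase subunit, was called over the stop codon in every list but day 1, with folds of 55.3, 69.7 and 16.9, and Eif2s1, a translation initiation factor, at day 1 alone, with a fold of 3.78. Of 20 hepatic target genes of C/EBPs, 13 were called in at least 1 list. Of these, 7 had one in all 4, against the same 23.8%. Arg1, an enzyme of the urea cycle, and Hp, an acute-phase protein, had one over the stop codon in every list, with low folds of 3.04 to 7.28 and 3.87 to 5.54. Tat, which breaks down tyrosine, and G6pc, which releases glucose, had a peak in every list, over the stop codon in 3 and 2 of them.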

How the data were processed

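m6A-RIP sequencing of wild-type liver was used, and the sample titles gave the age and the kind (input or IP). Per the methods, the authors aligned reads to mm10 with HISAT2, called peaks with exomePeak and kept the longest isoform per gene. HOMER is named in the submitters' processing notes. How the libraries of 2 animals were combined is stated in no source used here. The deposited tables gave each peak's blocks, class, p-value and fold enrichment (the ratio of IP to input). The log10 of p and of FDR, as deposited by the authors, were read as a score without a fixed range. No counts were given and the depth is unknown, so the precision of a fold is unknown too. A log10 p shown as a spreadsheet error was taken as the strongest.

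Python 3.11.15 was used, with numpy 2.4.6 and matplotlib 3.10.9 for the figures. Positions were read as counted from 0, since 99.4% of 666 block junctions at day 1 then fell on annotated exon edges and 0% when read as counted from 1, and are printed counted from 1. Of 8641 gene identifiers, 8632 were in GENCODE M21. Blocks were projected onto each gene's longest coding transcript, a step that was tested on simulated data. A percentile is the share of peaks in a list at or below a value. Overlap asked for at least 1 base of exon blocks on the same strand. The 4-week table repeats the 2-week one in all 8765 rows but for 12 gene names and was left out. All 4 members were named. From each other list the first 4 genes, in a set order, with a peak over the stop codon were named. Genes most like a member were those with the smallest Euclidean distance over the best-fold percentiles in 4 lists. Members and lists were chosen with earlier results of these data known. Alternatives tried: log10 FDR of -3 or lower, fold of 5 or higher, the strongest 4808 peaks per list, a 200 nt window at the stop codon, another transcript, 50% overlap and other motifs. Leaving out the joint or the 8-week list was added after seeing the data.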

Additional observations from a re-analysis of the deposited data

How the results depend on the processing

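No alternative moved a count of the members by more than 1.5 times. The 4 members had a peak in every list under each filter on peaks. With a log10 FDR of at most -3 the 8-week list held 6 member peaks in place of 7, and in lists cut to 4808 peaks the joint list held 5 in place of 6. Counting peak middles within 200 nt of the stop codon, in place of peaks over it, gave 4 of 4 members in the joint list in place of 3. The transcript with the longest coding sequence gave the same counts for the members. With a fold of at least 5, the share of peaks of single-exon genes that lay over the stop codon went from 34.4% to 35.2% at day 1, from 26.3% to 27.2% at 1 week, from 29.3% to 30.7% in the joint list and from 21.0% to 20.9% at 8 weeks. Without the 8-week list, 3 members had a peak over the stop codon in every list. No paired analysis was possible because no age had more than 1 list. No replicate could be left out for the same reason. The depth of the libraries is unknown, so no limit can be given for a gene or site without a peak.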

Other observations

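The genes most like each member were looked for among 1978 protein-coding genes that all 4 lists held, by the distance between the percentiles of their best folds over the 4 lists. For Cebpa they were Abl1 (distance 1.68), Hs3st3b1 (2.48) and Purb (2.80), of which Purb is also a single-exon gene. Purb lay at percentiles 98.1, 98.2, 93.6 and 77.7, where Cebpa lay at 98.5, 98.1, 91.8 and 79.8. For Cebpd they were Slc25a46, AI987944 and F830016B08Rik, at distances of 2.35 to 3.61, and for Cebpg they were Anks4b, Plec and Ahnak, at 2.02 to 3.22. Cebpb had no gene as near, with Aldh1b1 at 6.50, Gm16286 at 7.59 and Bmp2k at 8.07. No member was among the nearest 3 genes of another member. The percentiles come from the same 4 lists for all genes, and the order is a description of them.

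A peak over the stop codon in every list was found for 28 of 102 single-exon genes with a peak in all lists. In alphabetical order they open with Apon, Atxn7l3b, B3galt1, Cebpa and Cebpb. Cited2, a coactivator binding protein of liver development that was picked after its values were seen, is among them.

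Markers of other liver cell types were also looked up. For comparison, the 4 lists held 73.3%, 64.0%, 63.9% and 39.9% of all genes with a peak from day 1 to 8 weeks, so fewer calls at 8 weeks were general. Of 8 erythroid markers, 5 were called in at least 1 list. Of these the day 1 list held 3, the 1-week list 3, the joint list 1 and the 8-week list 0, with Hba-a1, Hbb-bs and Alas2 called in none. Of 5 Kupffer cell markers, 3 were called in at least 1 list, and 2, 3, 2 and 2 of these from day 1 to 8 weeks. Of 4 endothelial markers, 2 were called, both of them in each list. The part of cell make-up in the values of the C/EBP members was not tested.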
